A study of Drosophila melanogaster with 4 samples.

Results

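H3K27me2, histone H3 dimethylated at lysine 27, was examined in the assembled pericentric heterochromatin of Drosophila melanogaster, the sequence on either side of the centromeres. The members were all enriched regions on scaffolds whose name ends in Het, which are 2LHet, 2RHet, 3LHet, 3RHet, XHet and YHet. The list of ChIP replicate 1 held 798 of them among 10114 regions, that of ChIP replicate 2 held 993 among 10115, and the series' list held 1180 among 16728. These are 7.89%, 9.82% and 7.05% of the lists.

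The 2 ChIP samples were chromatin of adult fly heads precipitated with the antibody Ab24684, and 2 Input samples from the same kind of material served the replicate of the same number. All 4 samples came from wild-type Oregon-R flies (Oregon-R-modENCODE, stage Mixed Adult) grown in population cages, so each sample pooled many animals. Heads hold many cell types, and the sex ratio of the flies is not in the labels. Nothing says whether the replicates came from separate collections, and their spread, like any p-value from it, may reflect technical differences alone.

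Polycomb repressive complex 2 methylates lysine 27 of histone H3. Its dimethylated form is known to be spread widely over inactive sequence, while the trimethylated form marks repressed developmental genes. Pericentric heterochromatin is rich in transposable elements and satellite repeats and is best known for methylation of lysine 9 of histone H3, to which the protein HP1 binds. The Het scaffolds hold assembled parts of it that were placed on a chromosome. The Y chromosome, carried by males, is heterochromatic along its whole length.

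Coordinates are 1-based on FlyBase release 5, per the file headers. The lengths given there are 0.369 Mb for 2LHet, 3.29 Mb for 2RHet, 2.56 Mb for 3LHet, 2.52 Mb for 3RHet, 0.204 Mb for XHet and 0.347 Mb for YHet, 9.28 Mb in all. Each region has a start, an end and a score of the authors' own. The values fit a log2 ratio of whole numbers minus 1 constant per list. Read here as ChIP reads over input reads, an assignment for which there is no label or header, the upper and lower terms are known in lowest terms alone, and the true numbers may be whole multiples. Het regions had a median upper term of 165.5 and lower term of 77 in replicate 1, of 173 and 104 in replicate 2, and of 256 and 151 for the series. These sizes limit the median counting error of Het scores to 0.20, 0.18 and 0.15 (log2 units) in the same order of lists. PCR copies are not independent molecules, so this limit is for counting alone, and library totals are unknown.

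The mark was called on all 6 scaffolds, and enriched regions covered the largest shares of the 3 long ones. Enriched regions covered 26.8% and 36.0% of 3LHet in replicates 1 and 2, with a mean of 31.4% ± 6.51 (SD, n = 2). On 3RHet the replicates gave 26.3% and 33.8%, with a mean of 30.1% ± 5.35 (SD, n = 2). On 2RHet they gave 22.9% and 31.7%, with a mean of 27.3% ± 6.21 (SD, n = 2). The ranges of these 3 scaffolds overlapped, but each replicate put 2RHet lowest. Within replicates 3LHet exceeded 2RHet by 3.91 and 4.33 percentage points and 3RHet exceeded it by 3.41 and 2.19, with means of 4.12 ± 0.299 and 2.80 ± 0.862 (SD, n = 2 each). Between 3LHet and 3RHet the difference was 1.32 ± 1.16 percentage points (SD, n = 2).

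The short scaffolds were covered less, and each replicate placed them below the 3 long ones. For XHet the replicates gave 21.2% and 20.7%, a mean of 20.9% ± 0.408 (SD, n = 2). The values for 2LHet were 14.5% and 15.8%, a mean of 15.2% ± 0.924 (SD, n = 2). YHet had the lowest cover of the 6, with 2.25% and 7.82%, a mean of 5.03% ± 3.94 (SD, n = 2). The values of XHet, 2LHet and YHet did not overlap. In the series' list the cover was 59.3% on 3LHet, 58.6% on 3RHet and 49.8% on 2RHet. It was 48.5% on XHet, 32.1% on 2LHet and 29.5% on YHet, the same order. By its name this list is a set of the same 2 ChIP replicates, so its order is not independent of theirs.

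**Figure D1:**
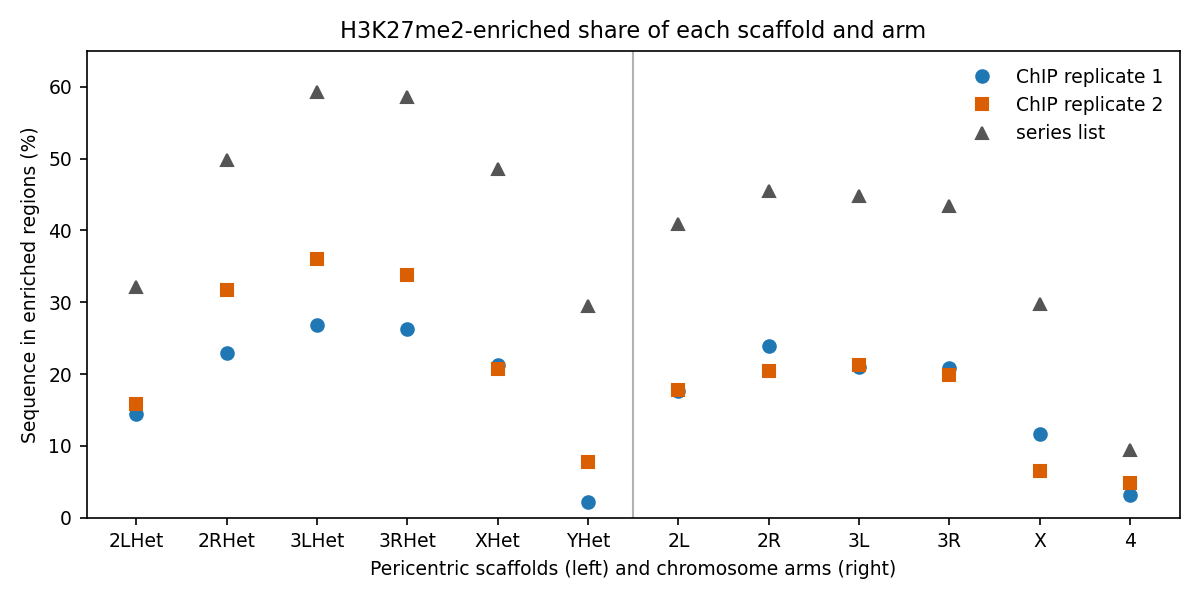
Share of each scaffold (left of the line) and each chromosome arm (right) that lies in enriched regions, in percent of its length, with a point for each list. In both replicates 2RHet, 3LHet and 3RHet stand above XHet, 2LHet and YHet, and the series' list lies above both replicates on every scaffold and arm.

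Set against the chromosome arms, the scaffolds together were covered more in each replicate, by an amount that depended on the replicate. Replicates 1 and 2 covered 23.7% and 31.7% of all Het sequence, against 20.8% and 19.9% of the large autosomal arms 2L, 2R, 3L and 3R. The differences were 2.94 and 11.8 percentage points, a mean of 7.36 ± 6.25 (SD, n = 2). An exact sign-flip permutation test over the 2 replicates gave a two-sided p of 0.5, which is the smallest this design allows, so no difference in cover can be called significant here. Of the short scaffolds, 2LHet differed from the large autosomal arms by -5.17 ± 1.56 percentage points and YHet by -15.3 ± 4.57, while XHet was within 1 percentage point of them (0.605 ± 0.228; SD, n = 2 each). Other sequence lay below the large autosomal arms. Chromosome X was covered to 11.7% and 6.46%, chromosome 4 to 3.21% and 4.80%, and the unplaced scaffold U to 9.54% and 13.7%.

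The adjoining ends of the arms lay closer to the pooled Het sequence than the whole arms did. Against the 2 Mb of 2L, 2R, 3L and 3R nearest the centromere, of which 23.7% and 27.4% was covered, the difference of all Het sequence was 2.15 ± 3.00 percentage points (SD, n = 2), less than its spread. The short scaffolds lay further from these ends than from the whole arms, with differences of -10.4 ± 1.69 percentage points for 2LHet, -4.61 ± 3.03 for XHet and -20.5 ± 1.32 for YHet (SD, n = 2 each). On the left arm of chromosome 3, the scaffold 3LHet was covered to 26.8% and 36.0%, against 30.0% and 35.6% of the proximal 2 Mb of 3L. On the right arm the step was larger, with 26.3% and 33.8% of 3RHet against 21.4% and 20.5% of the proximal 2 Mb of 3R. On chromosome 2, 22.9% and 31.7% of 2RHet stood against 26.3% and 31.2% of the proximal 2 Mb of 2R, and 14.5% and 15.8% of 2LHet against 17.1% and 22.3% of that of 2L. XHet was covered to 21.2% and 20.7%, against 11.7% and 10.5% of the proximal 2 Mb of X. Unfilled assembly and sequence too repetitive to align reads are not marked in the lists and count as uncovered. Where heterochromatin begins on the arms is not marked either, so their proximal 2 Mb may hold some of it as well.

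The replicates differed more on the long scaffolds than on the large autosomal arms. Replicate 2 covered 1.38 times as much of 2RHet as replicate 1, 1.34 times as much of 3LHet and 1.29 times as much of 3RHet. On the large autosomal arms this ratio was 0.957. It was 1.16 in their proximal 2 Mb, 1.43 on U, the scaffold of unplaced sequence, and 0.550 on X. Such a difference was thus not particular to the Het scaffolds. In full windows of 100 kb, replicate 2 gave the higher cover in 80 of 90 windows on the Het scaffolds. On the arms it did so in 414 of 965 windows, and in their proximal 2 Mb in 51 of 78. The cause of this difference between libraries was not tested.

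Along the scaffolds, enrichment was uneven but reached every full window of 100 kb. No full window of any Het scaffold lacked a region in either replicate. On the large autosomal arms 22 of 965 windows had none in either. Longer empty stretches still lay across window bounds, such as 126107 bp of 2RHet without a region in either replicate. The shorter last windows of XHet and YHet were also empty in both. The median window on the Het scaffolds was covered to 28.2%, with quartiles of 17.5% and 37.8%, as the mean of the replicates. For the arms the median was 18.0%, with quartiles of 10.6% and 28.3%. Cover below 10% was found in 11 of 90 windows on the Het scaffolds (12.2%) and in 228 of 965 on the arms (23.6%). The proximal 2 Mb of the arms resembled the Het scaffolds in this, with 8 of 78 windows below 10% (10.3%), 1 of 78 empty and a median of 24.2%.

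The densest windows, ranked by the mean of the replicates, were a few separate places. On 2RHet the window from 1900001 to 2000000 had 59.8% and 74.5% of its bases covered in replicates 1 and 2, the highest of all 90 windows. The window from 1900001 to 2000000 on 3RHet had 52.6% and 65.3%, and that from 1200001 to 1300000 on 3LHet had 52.9% and 64.6%. In each of these 3 windows both replicates exceeded their own medians over the windows, 23.7% and 32.5%, by more than 20 percentage points. Ranking by the mean favours windows high in both, so this is no separate measure of agreement.

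The sparsest windows, ranked in the same way, were low in both replicates, which a low mean requires. The window from 2700001 to 2800000 on 2RHet had 2.17% and 1.64% in replicates 1 and 2. It belongs to a run of thinly covered sequence from 2400001 to 2800000, where the 4 windows had 1.64% to 11.7% in either replicate. Another sparse window of 2RHet ran from 200001 to 300000, with 1.71% and 5.13%. On 3LHet the lowest window was 2300001 to 2400000, with 4.68% and 5.25%, and on 3RHet it was 300001 to 400000, with 3.45% and 12.2%.

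**Figure D2:**
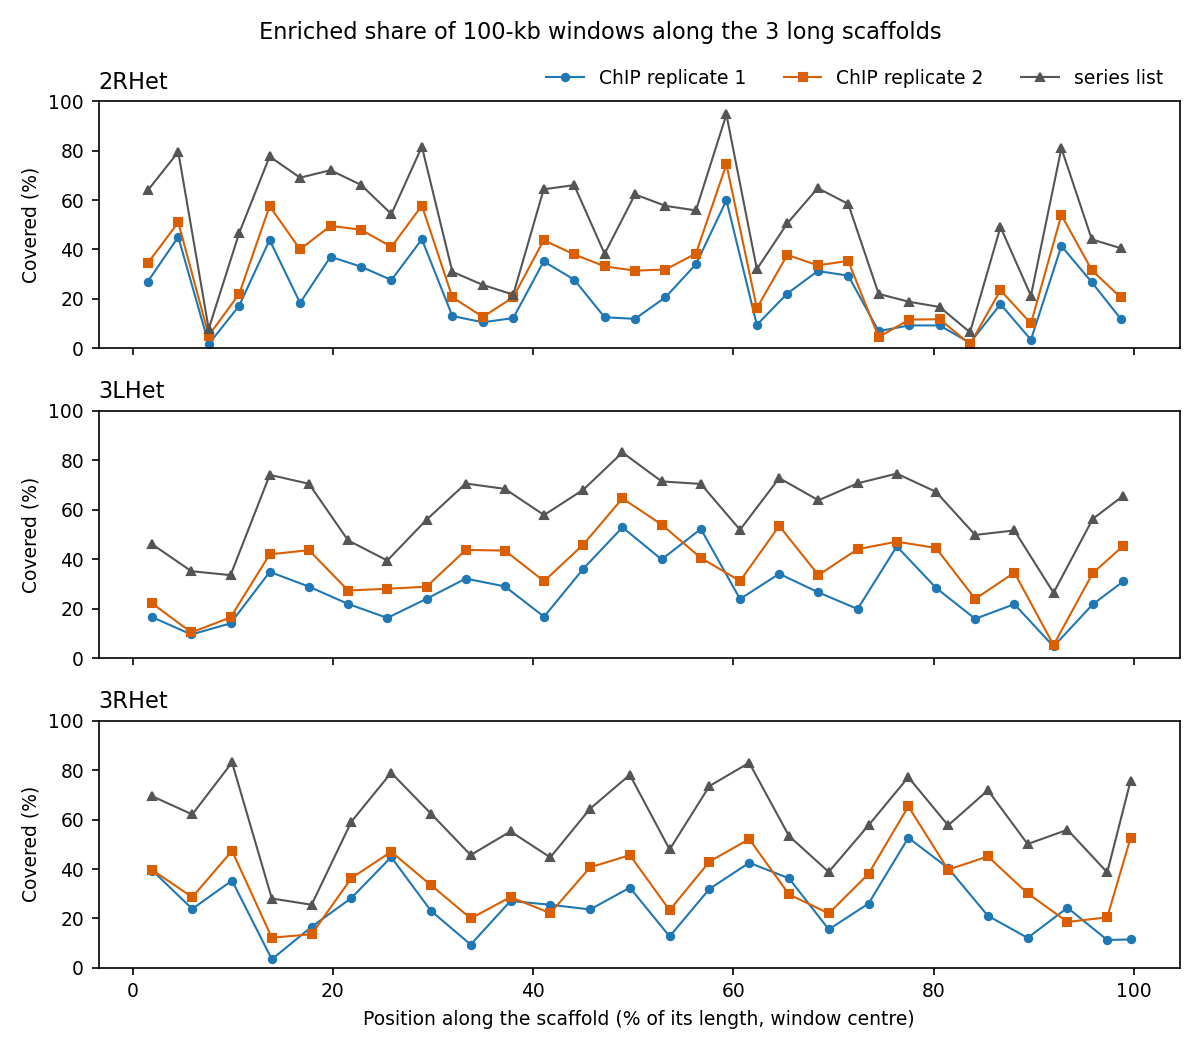
Share of each 100-kb window in enriched regions (vertical axis, percent) along 2RHet, 3LHet and 3RHet (horizontal axis, position in percent of the scaffold's length), for both replicates and the series' list; the last window of each scaffold is shorter. The 3 lines mostly rise and fall together, with the peak of 2RHet at 59.8% and 74.5% in the replicates.

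Cover per window in the replicates went together, with a Pearson r of 0.895 and a Spearman rho of 0.884 over the 90 full windows. Within the scaffolds the Pearson r was 0.947 on 2RHet (32 windows), 0.852 on 3LHet (25 windows) and 0.818 on 3RHet (25 windows). Windows share a library and neighbours are not independent, so these values are descriptions. On the large autosomal arms r was 0.847.

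The long scaffolds had different profiles from end to end. Each was divided into 3 equal parts. On 2RHet the cover in replicates 1 and 2 was 28.1% and 38.9% in the first part, 23.1% and 34.4% in the middle part, and 17.5% and 21.7% in the last. On 3LHet the middle was densest, with 35.4% and 45.5%, against 21.3% and 28.3% in the first part and 23.6% and 34.1% in the last. On 3RHet the parts were alike, at 24.7% to 28.3% in replicate 1 and 31.9% to 35.2% in replicate 2. Among the short scaffolds, XHet was densest in its last part (44.0% and 36.5%) and 2LHet was sparsest in its first (6.82% and 4.64%). Which end of a scaffold faces the centromere was not used here.

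Regions reached close to the starts of the long scaffolds, and their distance from the ends varied. The first region of the series' list began at position 11 on 3RHet, 16 on 3LHet and 47 on 2RHet. The last region of 3RHet was deposited with an end 541 bp past the scaffold's length in the series' list and 489 bp past it in replicate 2, and was trimmed. In replicate 1 the last region of 3RHet stopped 10.7 kb short of the end. On 2RHet the last regions stopped 21.0 and 12.7 kb short of it in replicates 1 and 2, and 12.7 kb short in the series' list. On 2LHet no list had a region in the first 40239 bp, while replicate 2 reached to 703 bp from the end. On YHet the replicates had none in the last 77.5 kb and 80.0 kb, where the series' list reached to 19.3 kb from the end.

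Het regions were mostly narrow, as were those of the arms. The replicates' median widths were 2046.5 and 2188 bp, against 1986 and 1947 bp on the large autosomal arms. The difference of 150.8 ± 127.6 bp (SD, n = 2) rests mainly on replicate 2. More than 10 kb was spanned by 10 of the 798 Het regions of replicate 1 and by 14 of the 993 of replicate 2. These are 1.25% and 1.41%, where the whole lists had 0.959% and 0.712%. In the series' list 102 of 1180 Het regions were that wide (8.64%, where the whole list had 4.86%), and they held 32.4% of its covered Het bases.

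The widest Het regions of the series' list each overlapped several shorter regions in both replicates. As the list is by its name a set of the same 2 replicates, this overlap is not independent evidence. The widest spanned 40272 bp on 2RHet, from 1896971 to 1937242, and the replicates covered 72.5% and 72.1% of it with 5 regions each. The next, from 429569 to 465956 on 2RHet, spanned 36388 bp and was covered to 69.6% by 10 regions of replicate 1 and to 70.8% by 8 of replicate 2. The region from 3017150 to 3052923 on 2RHet (35774 bp) had 58.6% and 93.1%, so its mean of 75.9% ± 24.4 (SD, n = 2) rests on replicate 2. On 3RHet the region from 1943443 to 1978131 (34689 bp) was covered to 85.0% and 94.7%, the highest mean of the 10 widest. It held the widest region of replicate 1 on these scaffolds, 15366 bp, and that of replicate 2, 32709 bp.

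The 10 widest lay on 2RHet (4), 3RHet (4) and 3LHet (2). Their scores ran from 0.62 to 0.87, their upper terms from 1231 to 7141 and their lower terms from 671 to 3611, which limits the counting error to at most 0.069. Each replicate covered at least 50.7% of each of them. The widest region of XHet ran from 133041 to 152047 (19007 bp, covered to 85.2% and 67.9%), and that of 2LHet from 242421 to 253923 (11503 bp, 89.5% and 93.4%). The widest of YHet, from 265296 to 272236 (6941 bp), was covered to only 21.0% and 19.0%.

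Gaps between neighbouring regions were short. On the Het scaffolds their median was 3741 and 2431 bp in the 2 replicates, against 3739 and 3389 bp on the large autosomal arms. Gaps under 1 kb made up 22.3% and 30.5% of those on the Het scaffolds, against 22.4% and 24.1% on the arms. When regions less than 1 kb apart were merged, the Het regions numbered 621 in replicate 1 and 692 in replicate 2, and the longest merged block of replicate 2, 41.3 kb from 3011731 to 3053008 on 2RHet, joined 10 regions. Gaps over 20 kb made up 9.61% and 6.69% of those on the Het scaffolds, against 13.5% and 12.8% on the arms.

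The longest gap of the Het scaffolds lay in the thin stretch of 2RHet. Replicate 1 had no region between 2635972 and 2773190 (137219 bp) and replicate 2 none between 2647069 and 2773175 (126107 bp), nearly the same sequence. In the series' list it ran from 2647045 to 2764378 (117334 bp). On 3RHet the longest gaps of the replicates also began together, at 435597 and 435559, and ended at 541463 and 522799. On 2LHet they ran from 61632 to 133974 and from 62083 to 121258. On 3LHet the longest gaps lay at different places, 65365 to 168375 for replicate 1 and 199789 to 267762 for replicate 2, but the other replicate covered only 4.74% and 1.67% of them. On the large autosomal arms the longest gaps were 419352 and 509272 bp.

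The median score of Het regions exceeded that of the large autosomal arms in every list, but not in every list that of chromosome X, and it was below that of U, the scaffold of unplaced sequence. Median scores of Het regions were 0.78 and 0.74 in the replicates and 0.64 for the series, against 0.65, 0.60 and 0.44 for regions of the large autosomal arms. On the log2 scale these are differences of 0.13 and 0.14, with a mean of 0.14 ± 0.0015 (SD, n = 2), and of 0.20 for the series. Each Het scaffold had a higher median than each of the 4 arms within the same list. In replicate 1 the medians were 1.21 on YHet, 0.92 on XHet, 0.81 on 3RHet and 2LHet, 0.77 on 2RHet and 0.76 on 3LHet. In replicate 2 they ran from 0.71 on 3LHet to 0.96 on YHet. Regions of chromosome X had medians of 0.78 and 0.77 in the replicates, above 2RHet and 3LHet in replicate 1 and above all 3 long scaffolds in replicate 2, and those of U had 0.90 and 0.82. In the series' list X had 0.54, below every Het scaffold, and U had 0.78.

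Most Het regions ranked in the upper part of their list, as did most regions of X and U. Of the Het regions, 611 of 798 (76.6%) scored above the median of replicate 1 and 805 of 993 (81.1%) above that of replicate 2, where 50% of each whole list lies above by construction. Scores above percentile 90 were held by 29.7% of Het regions in both replicates, where the whole lists had 9.99% and 10%. On the large autosomal arms the share was 3.93% and 2.37%. Such regions covered 8.80% and 10.9% of Het sequence, against 1.76% and 0.837% of the arms. On XHet and YHet all regions of both replicates scored above the median of their list. High ranks were not particular to the Het scaffolds. The lower quartile of scores was 0.70 and 0.71 on X and 0.74 and 0.70 on U. These exceed the medians of the whole lists, 0.67 and 0.63. On U the median score, 0.9013 and 0.8236, lay above percentile 90 itself, 0.8832 and 0.8234.

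The difference in score was found in each class of width. Among regions under 2 kb the medians were 0.70 on the Het scaffolds and 0.59 on the arms in replicate 1, and 0.67 and 0.56 in replicate 2. Among regions of 5 to 10 kb they were 0.91 and 0.79 in replicate 1, and 0.80 and 0.71 in replicate 2. Among regions over 10 kb they were 0.92 (10 regions) and 0.85 (84 regions) in replicate 1, and 0.83 (14 regions) and 0.77 (56 regions) in replicate 2, the smallest differences of the 4 classes.

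**Figure D3:**
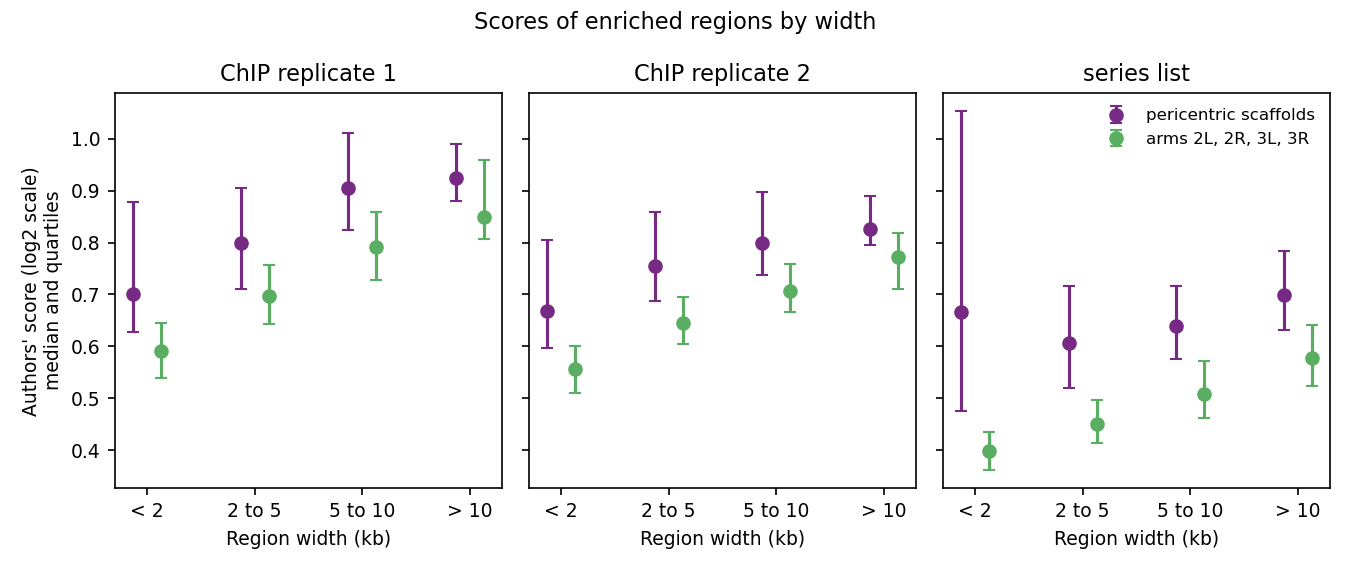
Authors' score on the log2 scale (vertical axis, median as a point and quartiles as bars) by width of the region in kb (horizontal axis), for Het scaffolds and for the arms 2L, 2R, 3L and 3R, in a panel per list. The Het median is the higher in every class, for example 0.70 against 0.59 under 2 kb in replicate 1, and the spread is widest among narrow Het regions of the series' list.

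The read terms of Het regions were thinner than those of the arms. On the Het scaffolds the median lower term per kb of region was 35.1 and 43.4 in the replicates, against 60.8 and 79.4 on the large autosomal arms. It was lowest on XHet, with 18.2 and 26.5, and on YHet, with 16.2 and 25.5. On 2RHet it was 37.5 and 41.5, on 3LHet 36.1 and 48.3, on 3RHet 32.9 and 43.9, and on 2LHet 28.1 and 46.8. Upper terms per kb were lower as well, with medians of 80.8 and 74.2 on the Het scaffolds, against 126.4 and 122.2 on the arms. Only called regions have such terms, and the part that thin reads play in the higher scores was not tested as a whole. Their part in the lower cover of the short scaffolds was not tested either. With regions whose lower term is at least 100, a limit set after the values were seen, the median scores were 0.75 and 0.66 in replicate 1 and 0.72 and 0.61 in replicate 2, for the Het scaffolds and the arms.

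**Figure D4:**
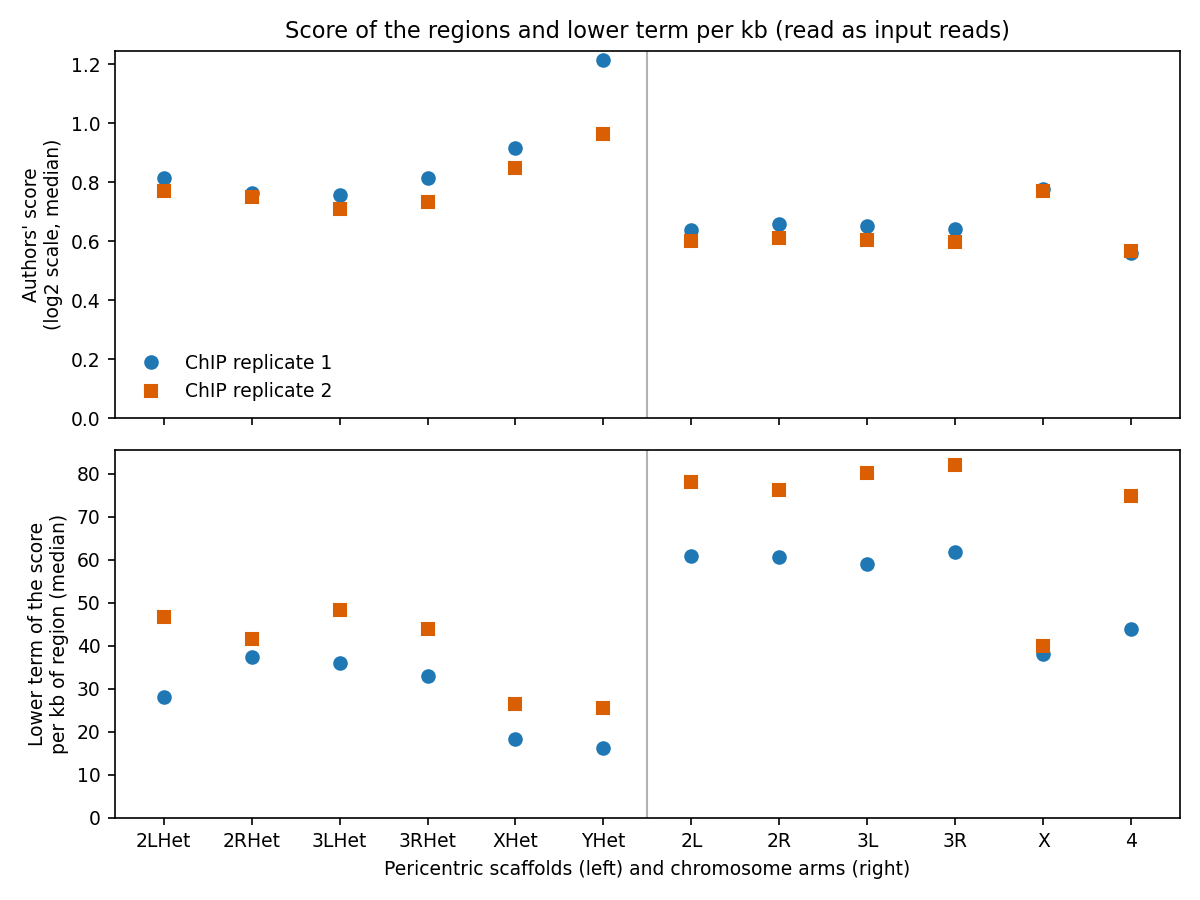
Median score of the regions (upper panel, log2 scale) and median lower term of the score per kb of region, read here as input reads (lower panel), for each scaffold and arm in both replicates. YHet and XHet have the highest scores and the lowest terms per kb, and chromosome X lies near the long Het scaffolds in both panels.

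In the series' list, score and width were related differently on the Het scaffolds and on the arms. Spearman's rho across regions was -0.074 over the Het regions and 0.525 over those of the large autosomal arms. In the replicates it was 0.312 and 0.275 over the Het regions, against 0.604 and 0.582. On U rho was -0.413 in the series' list and -0.114 and -0.137 in the replicates. For X the values were 0.270 in the series' list and 0.497 and 0.335 in the replicates. A lower rho than on the large autosomal arms was thus not particular to the Het scaffolds. Narrow regions filled the top of the series' list, whose 10 highest-scoring Het regions were 1001 to 2019 bp wide and scored 2.72 to 4.28. Their upper terms were between 9 and 22 and their lower terms 1 or 2, with counting errors of 1.09 to 1.52 if the terms are the read numbers. None of the 10 touched a region of either replicate. The highest of them lay on 3RHet from 1656373 to 1658391, and 5 were on 2RHet, 3 on 3RHet and 2 on 3LHet. The widths of 218 of the 1180 Het regions of the series' list were below 1301 bp, the narrowest region of either replicate, so no region of such a width was listed in a replicate.

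Overlapping pairs were ranked by the lower of their deposited scores, although the constants of the lists differ. Of the first 10, the highest lay on 2RHet, at 894998 to 896645 for replicate 1 (score 1.61) and 894992 to 896643 for replicate 2 (score 1.59). Its ratios in lowest terms, 4 to 1 and 3 to 1, do not show how many reads lie behind it. On 3LHet the region from 1485255 to 1490465 of replicate 1 scored 1.31, with terms of 386 and 119. Replicate 2 had 2 regions there, from 1484980 to 1487135 and from 1487611 to 1490572, with scores of 1.31 and 1.16. The other pairs lay on 3LHet (2), 3RHet (4) and 2RHet (1), and their lower score ran down to 1.12.

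Agreement between the replicates was measured by shared bases. Bases called in both replicates divided by bases called in at least 1, the Jaccard index, came to 0.450 over all Het sequence, against 0.363 on the large autosomal arms and 0.439 in their proximal 2 Mb. It was 0.537 on 2LHet, 0.463 on 3LHet, 0.462 on 2RHet, 0.432 on 3RHet, 0.380 on XHet and 0.0818 on YHet. The index grows with the cover itself. Relative to the product of the replicates' covers, the shared share was 2.29 times as large on the Het scaffolds and 2.62 times on the arms. This ratio cannot exceed the inverse of the larger cover, so its ceiling falls as cover grows. On YHet it was 4.33, although the index was lowest there. With opposite dependence on cover, neither measure shows whether the replicates agreed better on the Het scaffolds or on the arms.

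The overlap was asymmetric. Of the Het regions of replicate 1, 676 of 798 (84.7%, where the whole list had 62.7%) overlapped a region of replicate 2 by at least 1 bp. Of those of replicate 2, 668 of 993 (67.3%, where the whole list had 63.5%) overlapped a region of replicate 1. The share in replicate 2 was thus close to that of its whole list. In the proximal 2 Mb of the large autosomal arms the shares were 77.1% and 67.3%, and on X they were 33.2% and 52.2%. More of the Het sequence was covered in replicate 2 than in replicate 1 (31.7% against 23.7%). Replicate 2 covered 72.4% of the Het bases of replicate 1, and replicate 1 covered 54.3% of those of replicate 2. Regions of replicate 1 without a partner were narrower (median 1655.5 bp against 2204.5 bp) but scored higher (0.89 against 0.76). Those of replicate 2 without a partner were also narrower (1796 bp against 2638.5 bp), with a score of 0.74 in both classes. On the arms, regions without a partner scored lower than shared ones in both replicates (0.63 against 0.66, and 0.58 against 0.62). On X they were also lower (0.772 against 0.794, and 0.764 against 0.777). On U they scored higher in both replicates (1.195 against 0.816, and 0.891 against 0.789). A higher score without a partner was thus not particular to the Het scaffolds.

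Scores of overlapping regions went together loosely. Over 815 Het pairs Spearman's rho was 0.397 and the Pearson r 0.395, against a rho of 0.266 over 5977 pairs on the large autosomal arms, 0.420 over 637 pairs in their proximal 2 Mb and 0.533 over 314 pairs on U. By scaffold rho was 0.442 on 2RHet (287 pairs), 0.310 on 3LHet (255 pairs) and 0.374 on 3RHet (237 pairs). Pairs share libraries, and a region can enter several pairs.

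The short scaffolds had few shared regions. On 2LHet 15 of 18 regions of replicate 1 and 17 of 26 of replicate 2 had a partner, and on XHet 11 of 17 and 11 of 15. On XHet 9 of the 11 shared regions of each replicate lay between positions 132959 and 184195. Between 55766 and 132958 replicate 2 had no region, and replicate 1 had 2, which scored 1.24 and 1.31 on lower terms of 10 and 4.

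On YHet the Jaccard index was the lowest of the 6 scaffolds. Replicate 1 had 5 regions there and replicate 2 had 15, and 3 of each overlapped. The shared ones lay at 24421 to 25842, 28914 to 30946 and 174501 to 175824 in replicate 1, with scores of 1.22, 1.47 and 0.91. Together the replicates shared 2640 bp of YHet, 0.761% of its length. The series' list held 53 regions on YHet, of which 38 touched no region of either replicate and 4 touched both. The unmatched ones had median terms of 64.5 and 36 and a median width of 1285 bp.

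In the series' list as a whole, 445 of 1180 Het regions touched both replicates (37.7%, where the whole list had 27.7%) and 422 touched neither (35.8%, where the whole list had 39.3%). Regions that touched replicate 2 alone were 232 (19.7%, where the whole list had 15.9%), and those that touched replicate 1 alone were 81 (6.86%, where the whole list had 17%). Those in both held 68.9% of the covered Het bases of the list. They had a median width of 6026 bp and a median score of 0.65, against 1324.5 bp and 0.71 for those in neither. On the large autosomal arms the order of the scores was the opposite, with 0.52 for regions in both replicates and 0.40 for those in neither. The median lower term of the Het regions in neither was 47, against 179 on the arms.

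**Figure D5:**
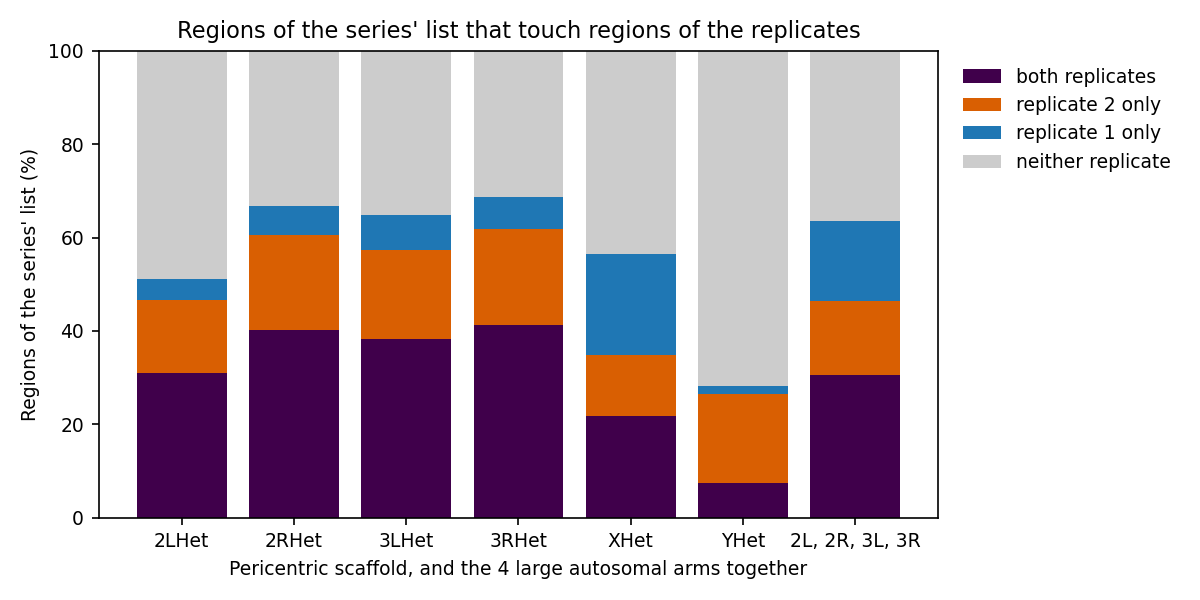
Regions of the series' list on each Het scaffold and on the 4 large autosomal arms together, divided by whether they touch regions of both replicates, of 1 replicate or of neither (vertical axis, percent of regions). The share in both replicates is 40.3% on 2RHet, 38.2% on 3LHet and 41.2% on 3RHet, and 71.7% of the regions on YHet touch neither.

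Nearly all Het sequence called in the replicates was also in the series' list, with 99.4% and 98.4% of their bases. Of the list's own Het bases, 32.2% were called in both replicates, 38.3% in a single replicate and 29.5% in neither, against 24.9%, 41.5% and 33.6% on the large autosomal arms. On YHet 70.8% of its bases lay in neither replicate.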

How the data were processed

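The deposited data are 3 lists of H3K27me2-enriched regions, from each ChIP replicate and from the series. The submitters' processing notes name the read aligner Bowtie 0.12.7 and no other tool. For the caller of regions, its cutoff and the joining of replicates, the sources used here give nothing. The score deposited by the authors has no stated scale. All scores in each list were log2 ratios of whole numbers (relative tolerance 1e-11) after addition of a constant (0.39 and -0.0058 for the replicates, 0.18 for the series), chosen to keep the numbers smallest. Scores were compared within 1 list, except that overlapping regions of the replicates were correlated and ranked by the lower deposited score.

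Regions were trimmed at the scaffold lengths of the file headers and cover was counted base by base (Python 3.11.15, numpy 2.4.6, pandas 2.3.3, scipy 1.17.1). A region belongs to the stretch that holds its midpoint. Interval functions were tested on simulated regions. Named regions are the widest and highest-scoring of the series' list over all Het scaffolds (10 each) and per scaffold, the longest gaps, the outermost regions and the 10 overlapping pairs with the highest lower score. The members and these rules were chosen with earlier results of these data known. Alternatives were the series' list, leaving out each replicate, a score minimum, merging, stricter overlap, other windows and untrimmed ends. Genes and sequences were not used, for want of an annotation and a genome of release 5.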

Additional observations from a re-analysis of the deposited data

How the results depend on the processing

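No paired analysis was possible because there are no Input values here to set against the ChIP samples of the same number; Het sequence and arms were compared within each replicate throughout. The score limits at percentiles 75 and 90, the limits on lower term and on width for scores, the proximal 2 Mb for scores and the omission of the short scaffolds were added after seeing the data. Of 41 alternative values other than those that left out a replicate, 20 were counted as unchanged and none changed sign. Unchanged meant within 1 SD of the replicates or, for the number of regions, within 1.5 times. That number, 895.5 ± 137.9 (SD, n = 2), became 656.5 with merging and 708 with scores above the list's median, both beyond the SD. Alternatives to values without an SD of the replicates all counted as changed. Among these values, the share of the series' Het regions touching both replicates had a limit from a binomial interval. That interval treats regions as independent trials and is no spread of the replicates. With 2 replicates, leaving out either of them cannot move a mean beyond their SD. The 20 values that left out a replicate thus say nothing on stability. The series' list raised the cover to 32.1% on 2LHet, 49.8% on 2RHet, 59.3% on 3LHet, 58.6% on 3RHet, 48.5% on XHet and 29.5% on YHet, and the differences from the arms in median score to 0.20 and in median width to 303 bp. Scores above the list's median lowered the cover of 2LHet to 13.1% and the Jaccard index to 0.379. Merging gave an index of 0.466 and a width difference of 526.5 bp, and the 3 long scaffolds alone an index of 0.453. A reciprocal overlap of 50% lowered the shared regions from 76.0% (the mean of both directions) to 40.5%. Of the series' Het regions, 21.9% had 50% of their length covered by each replicate, and 46.3% of those at least 1301 bp wide touched both. The score difference of 0.14 was 0.10 with a lower term of at least 100, 0.11 with regions of at least 5 kb and 0.11 against the proximal 2 Mb. The Pearson r of window cover was 0.861 with windows of 50 kb and 0.936 with 200 kb. Leaving out a replicate moved the difference in cover between Het sequence and the arms between 2.94 and 11.8 percentage points, a change of over 1.5 times in either direction. Scores above the list's median made this difference 12.6 percentage points and those above percentile 75 made it 12.99, while the proximal 2 Mb in place of the arms made it 2.15. The causes of these changes were not tested. The depth of each library is unknown, and so is the number of reads behind a score.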
